A study of Mus musculus with 10 samples.

Results

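The genes of ketone body use and monocarboxylate transport described here are 7 of the 45706 genes in the deposited expression table, each found by its symbol: Bdh1, Oxct1 and Acat1, the related dehydrogenase gene Bdh2, and the transporter genes Slc16a1, Slc16a3 and Slc16a7. All 7 were detected in every library, and 6 of them reached the level required for testing (at least 1 CPM in at least 5 libraries, where CPM are reads scaled to 1000000 per library); Bdh2 did not. Messenger RNA was measured in the left ventricle of mice that had undergone transverse aortic constriction (TAC), an operation that narrows the aorta and so raises the pressure against which the ventricle pumps. All 10 libraries came from TAC hearts, 5 labelled placebo (their treatment given as vehicle) and 5 labelled osimertinib, a lung cancer drug that inhibits the kinase of the EGF receptor, so that there is no unoperated group among them. The labels give no strain, sex, age, dose or duration, and it is not stated that each library is a different animal. The p-values therefore measure the spread between these libraries alone, which may be technical. The study asked what lies behind the cardiac toxicity of osimertinib.

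Ketone bodies are made mainly in the liver during fasting and are burned by the heart, and failing or pressure-loaded hearts are known for a greater use of them. In the mitochondria of heart muscle, 3-hydroxybutyrate is oxidised to acetoacetate by the dehydrogenase of Bdh1, acetoacetate receives coenzyme A from succinyl-CoA through the transferase of Oxct1, and the thiolase of Acat1 splits acetoacetyl-CoA into acetyl-CoA for the citric acid (TCA) cycle. Ketone bodies share their route across the cell membrane with lactate and pyruvate, the proton-coupled monocarboxylate transporters: that of Slc16a1 is the broadly expressed form, that of Slc16a3 is the low-affinity form of glycolytic cells that release lactate, and that of Slc16a7 has a high affinity for its substrates.

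Promoter sequences from the RefSeq table of build GRCm38.p6 were found for 5 of the 7 genes. Those of 3 genes that rose under osimertinib and, for comparison, of Slc16a3, which did not pass the test, are shown. Each window is the 250 bases before the RefSeq start, on the plus strand, 5′ to 3′. The windows are Bdh1 (chr16:31422047-31422296, the first of its starts), Oxct1 (chr15:4026178-4026427), Slc16a1 (chr3:104638414-104638663) and Slc16a3 (chr11:120948817-120949066). Gene positions given below are from GENCODE, whose starts differ from these. By those positions the Slc16a3 window lies inside the gene, and the Bdh1 and Oxct1 windows run past the gene start. Capitals mark every match, on either strand, to the motifs searched.
Bdh1: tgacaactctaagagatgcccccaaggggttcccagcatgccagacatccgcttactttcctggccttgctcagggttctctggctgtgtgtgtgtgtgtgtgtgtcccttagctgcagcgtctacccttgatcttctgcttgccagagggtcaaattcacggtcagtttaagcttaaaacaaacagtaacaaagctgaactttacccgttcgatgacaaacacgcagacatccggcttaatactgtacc
Oxct1: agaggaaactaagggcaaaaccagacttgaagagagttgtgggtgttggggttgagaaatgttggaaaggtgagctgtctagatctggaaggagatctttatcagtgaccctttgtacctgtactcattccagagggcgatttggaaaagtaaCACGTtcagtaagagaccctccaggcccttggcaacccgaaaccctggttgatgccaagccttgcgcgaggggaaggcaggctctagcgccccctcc
Slc16a1: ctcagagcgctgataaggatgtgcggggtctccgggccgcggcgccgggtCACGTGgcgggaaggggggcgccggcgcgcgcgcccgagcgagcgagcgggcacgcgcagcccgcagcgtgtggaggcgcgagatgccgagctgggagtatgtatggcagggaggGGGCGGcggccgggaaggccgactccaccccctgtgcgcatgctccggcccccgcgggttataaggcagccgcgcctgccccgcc
Slc16a3: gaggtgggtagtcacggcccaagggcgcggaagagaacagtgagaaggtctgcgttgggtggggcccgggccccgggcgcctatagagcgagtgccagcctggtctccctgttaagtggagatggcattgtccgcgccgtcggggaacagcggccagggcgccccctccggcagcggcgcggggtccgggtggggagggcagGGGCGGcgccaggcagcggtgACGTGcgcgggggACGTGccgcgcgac
The motifs were AAGGTCA, a half-site of estrogen-related receptors found in 4.08% of the 32851 promoter windows of the same length, CACGTG, the E-box (6.02%), ACGTG, the core of the hypoxia response element, which lies within every CACGTG (16.6%), GGGCGG, the GC box (32.7%), CCAAT (33.8%) and the palindromic site of nuclear respiratory factor NRF1 (0.782%). The Slc16a1 window held 1 E-box, 200 to 195 bases before the start, and 1 GC box. The Slc16a3 window held 2 separate ACGTG matches and 1 GC box, and the Oxct1 window held 1 ACGTG match on the minus strand. None of the 6 motifs matched in the Bdh1 window. The windows of the transporters were also the richest in G and C among these 4, at 76.4% in Slc16a1 and 73.6% in Slc16a3, against 49.6% in Bdh1 and 52% in Oxct1 and a median of 52.4% over all windows.

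The libraries held 15863265 to 21309296 reads, as recovered from the spacing of the values. The deposited CPM were scaled to each library's own total only, and mitochondrially encoded genes took 31.7% to 63.4% of it, with the highest share in placebo library 5. Values were therefore also divided by each library's median ratio to the geometric mean library ("rescaled"). The divisor was 0.4545 in placebo library 5 and lay between 0.9257 and 1.344 elsewhere, and rescaling moved the median log2 fold change of the 12350 tested genes from 0.27 to 0.01. The markers fitted heart muscle: all 8 cardiomyocyte markers were present, with a summed deposited level of 7930 CPM or more in every library. Their sum was not used to tell ventricular from atrial muscle. Atrial markers were also present (479 to 5589 CPM summed over 7 genes), although Bmp10 was at 0 throughout. Tissue RNA was measured in bulk, so fewer cells of a type and less RNA per cell cannot be told apart.

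The 3 enzymes of ketone oxidation rose under osimertinib, by 2.72 to 3.34 times in mean deposited CPM. Together with the transporter genes Slc16a1 and Slc16a7, 5 of the 6 tested members passed limma with Benjamini-Hochberg adjustment at 0.05 in the deposited CPM, all higher, where 6.62% of all tested genes were called higher and 0.13% lower. After rescaling the count was again 5 of 6, all higher, where 10.4% of all tested genes were called higher and 10.5% lower. The median log2 fold change over the 6 was 1.47 (1.19 rescaled). Slc16a7 reached the level for testing through the osimertinib libraries alone, so its call carries no weight in these counts.

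Bdh1 (ENSMUSG00000046598; chromosome 16, 31422280 to 31458901, GRCm38) had the largest rise of the 7. Its deposited levels were 11.4, 16.2, 38.5, 11.4 and 5.82 CPM in placebo libraries 1 to 5, and 30.7, 55.9, 92.4, 18.5 and 80.7 CPM in osimertinib libraries 1 to 5. Placebo library 3 lay well above the rest of its group, above osimertinib libraries 1 and 4, so the groups overlapped. The means were 16.7 ± 12.7 (SD, n = 5) and 55.6 ± 31.5 CPM (n = 5), and the log2 fold change was 1.75 ± 0.36 (SE; limma adjusted p = 0.0028), which ranked 14 of 12350 from the highest. After rescaling the 4 placebo libraries other than 3 drew together at 10.8 to 12.8 CPM, with placebo library 3 at 36.9, while the osimertinib libraries ranged from 15.6 to 80.0. The rescaled log2 fold change was 1.48 ± 0.44 (limma adjusted p = 0.0366), again ranking 14, and Bdh1 had the largest SE among the tested members.

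Oxct1 (ENSMUSG00000022186; chromosome 15, 4026383 to 4155344), whose product takes the committed step of ketone use, was the most abundant member. Placebo libraries 1 to 5 stood at 70.1, 134, 200, 170 and 43.0 CPM (199.81 in library 3), and osimertinib libraries 1 to 5 at 194, 350, 471, 224 and 443 CPM. The groups met only between placebo library 3 and osimertinib library 1. The mean went from 123 ± 66.0 to 336 ± 125 CPM (SD, n = 5 each), a log2 fold change of 1.56 ± 0.35 (limma adjusted p = 0.00417) and of 1.28 ± 0.32 after rescaling (adjusted p = 0.0232).

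Acat1 (ENSMUSG00000032047; chromosome 9, 53580522 to 53610382), the mitochondrial acetoacetyl-CoA thiolase, measured 38.0, 71.0, 87.7, 85.0 and 31.2 CPM in placebo and 89.0, 152, 250, 129 and 261 CPM in osimertinib, in the order of the library numbers (249.7 in osimertinib library 3). Every osimertinib library lay above every placebo library in the deposited CPM, as in 5.33% of tested genes (0.081% were apart with osimertinib lower), by a gap of little more than 1 CPM between placebo library 3 and osimertinib library 1. After rescaling placebo library 4, at 91.8 CPM, passed osimertinib library 1, at 90.8, and the groups overlapped. The log2 fold change was 1.49 ± 0.34 (limma adjusted p = 0.0046) and 1.21 ± 0.31 rescaled (adjusted p = 0.0251).

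Bdh2, a cytosolic dehydrogenase that also acts on 3-hydroxybutyrate (ENSMUSG00000028167; chromosome 3, 135281221 to 135304426), was close to the limit of detection. It was covered by 4 to 37 reads per library, against 124 to 1670 for Bdh1. The placebo libraries read 0.691, 0.504, 0.211, 0.485 and 0.235 CPM and the osimertinib libraries 0.818, 0.929, 0.442, 2.20 and 0.444 CPM. Osimertinib library 4 alone was above 1 CPM, and osimertinib libraries 3 and 5, which were the highest for Bdh1, were the lowest of their group for Bdh2. In the fit with no filter on low values its log2 fold change was 0.57 ± 0.28 (limma adjusted p = 0.352) and 0.43 ± 0.25 rescaled (adjusted p = 0.333), where the added 0.5 CPM shrinks the fold change of so low a gene. No difference in Bdh2 was shown, and its osimertinib values alone ranged from 0.442 to 2.20 CPM.

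Among the transporters, Slc16a1 moved with the enzymes, Slc16a3 did not pass the test under either scaling, and Slc16a7 was low but separate between the groups. Slc16a1 (ENSMUSG00000032902; chromosome 3, 104638668 to 104658462) stood at 14.2, 24.4, 31.6, 26.0 and 6.62 CPM in placebo libraries 1 to 5 and at 32.7, 54.1, 88.5, 27.8 and 72.8 CPM in osimertinib libraries 1 to 5. Only osimertinib library 4 fell within the placebo range. The mean rose from 20.6 ± 10.0 to 55.2 ± 25.9 CPM (SD, n = 5 each), with a log2 fold change of 1.45 ± 0.34 (limma adjusted p = 0.00608) and 1.17 ± 0.33 rescaled (adjusted p = 0.0308).

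Slc16a3 (ENSMUSG00000025161; chromosome 11, 120948480 to 120960868), the lactate exporter, measured 3.31, 2.21, 2.75, 1.70 and 1.08 CPM in placebo and 3.04, 2.60, 2.65, 2.67 and 1.28 CPM in osimertinib, from 23 to 67 reads per library. All osimertinib libraries lay within the placebo range in the deposited CPM; rescaled, osimertinib library 5 (1.24 CPM) lay below it (1.64 to 3.13). Its log2 fold change was 0.15 ± 0.30 in the deposited CPM (limma adjusted p = 0.826) and -0.073 ± 0.21 rescaled, so its direction turned with the scaling and its rescaled value was close to the median of all tested genes.

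Slc16a7 (ENSMUSG00000020102; chromosome 10, 125219270 to 125389465) was held by only 5 to 24 reads per library, 41 reads in all placebo libraries and 114 in all osimertinib libraries. The placebo values were 0.592, 0.378, 0.476, 0.546 and 0.235 CPM, and the osimertinib values 1.34, 1.49, 1.33, 1.43 and 1.05 CPM. The groups were apart under both scalings, at 0.281 to 0.59 CPM against 1.03 to 1.37 CPM after rescaling. In the deposited CPM 5.33% of tested genes were apart with osimertinib higher and 0.081% with osimertinib lower. After rescaling the shares were 5.72% and 6.82%. The log2 fold change was 0.96 ± 0.30 (limma adjusted p = 0.0376) and 0.79 ± 0.18 rescaled (adjusted p = 0.0174). The osimertinib libraries alone brought Slc16a7 to the level for testing, so these values are a description. At so low a level the size depends on the pseudocount, which shrinks the fold change and its SE alike. In the deposited CPM the log2 fold change was 1.42 with 0.1 CPM added and 0.44 with 2 CPM added. With voom on estimated reads, whose library sizes were rescaled, it was 1.31.

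**Figure D1:**
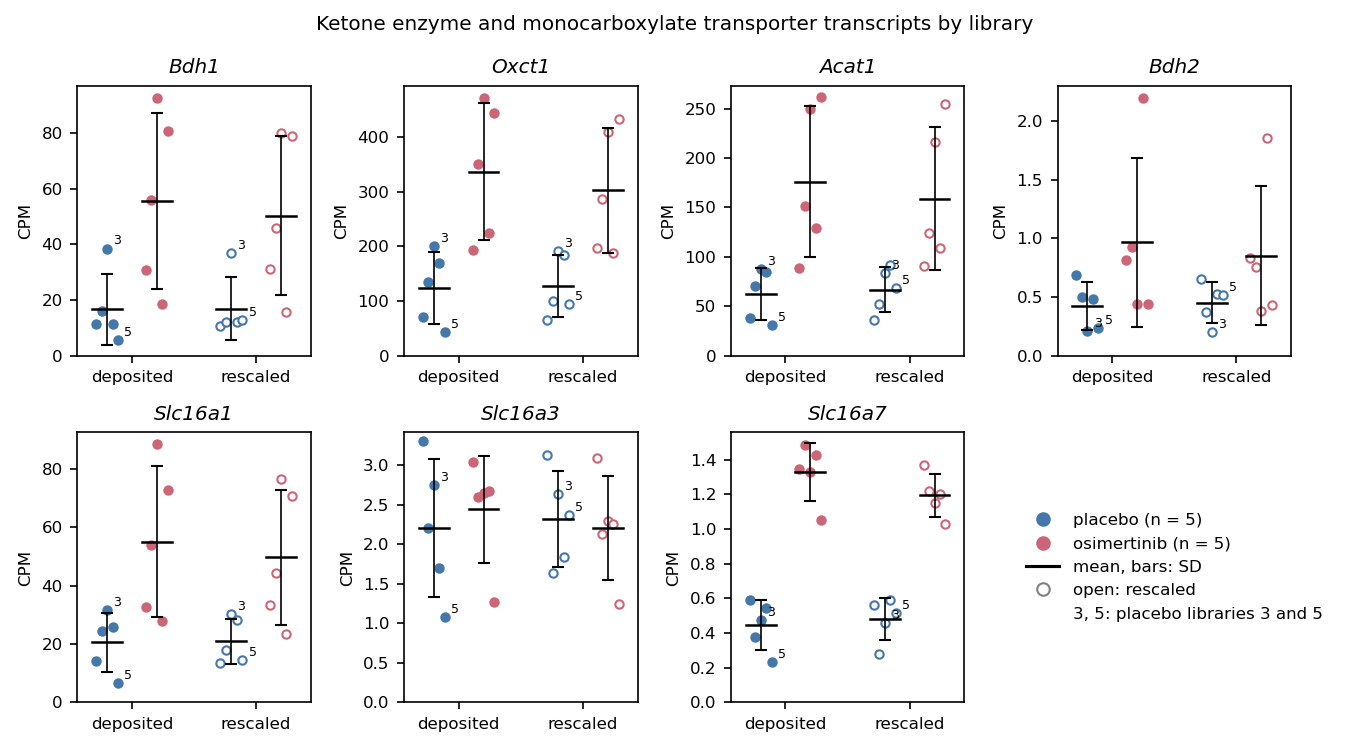
Level of each of the 7 genes in CPM (vertical axes start at 0) in 5 placebo and 5 osimertinib libraries, as deposited (filled points) and rescaled (open points), with means and SD. Bdh1, Oxct1, Acat1 and Slc16a1 spread widely within osimertinib, Slc16a3 overlaps, with rescaled osimertinib library 5 (1.24 CPM) below the placebo range, and Slc16a7 separates at 0.592 CPM or less against 1.05 CPM or more deposited and 1.03 or more rescaled.

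The calls differed in how they held when a library was left out. In the deposited CPM Bdh1, Oxct1, Acat1 and Slc16a1 passed in all 10 fits without 1 library (limma adjusted p up to 0.0466, 0.0318, 0.0292 and 0.0436), 7 of which had an infinite prior, so that a gene's own spread did not enter. Slc16a7 was lost without placebo library 1 or any 1 of the osimertinib libraries (adjusted p up to 0.107). After rescaling, where the prior was 4.45 degrees of freedom against 72.9 and a gene's own spread counted for more, Oxct1 and Acat1 passed in 6 of the 10 fits, Slc16a1 in 4 and Bdh1 in 3. Slc16a7 passed in all 10 (up to 0.0484), which is a description only, since osimertinib alone brought it to the level for testing. Oxct1, Acat1, Slc16a1 and Bdh1 each failed when placebo library 1 or 2, or osimertinib library 3 or 5, was left out, and Slc16a1 and Bdh1 also without placebo library 5 or osimertinib library 2, and Bdh1 without placebo library 4 (adjusted p up to 0.0973). With no filter on low values no member passed in the deposited CPM, where no gene of 21622 was called (5 of the 7 members and 3269 genes had an unadjusted limma p under 0.05), and Slc16a7 and Oxct1 passed after rescaling, where 2.45% of genes were called higher.

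The enzymes and Slc16a1 ranged together from library to library. Over the 10 libraries Pearson's r of log2 rescaled values was 0.97 between Oxct1 and Acat1, 0.98 between Oxct1 and Slc16a1 and 0.90 between Oxct1 and Bdh1, and it was 0.93, 0.95 and 0.79 after each group's mean was subtracted. These values are descriptions over libraries that share their treatment groups and their cell makeup. Slc16a7 was at -0.27 with Bdh1, -0.20 with Oxct1, -0.24 with Acat1 and -0.24 with Slc16a1 after the group means were subtracted. Slc16a3, with 23 to 67 reads per library, was at -0.51 with Oxct1 and -0.63 with Acat1 on the same measure. The 5 to 24 reads per library of Slc16a7 are too few to tell a shared pattern inside the groups from counting error.

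To set the enzymes beside the pathway they feed, each was divided within every library by the mean log2 level of 18 TCA cycle genes. Of these 18, 17 were called higher by limma in the deposited CPM and 17 after rescaling, and none was called lower. Of all tested genes, 6.62% were called higher and 0.13% lower in the deposited CPM, and 10.4% and 10.5% after rescaling. Such ratios do not depend on the scaling between libraries, apart from the pseudocount of 0.5 CPM. Bdh1 stood at a log2 ratio of -2.81 ± 0.60 (SD, n = 5) to the cycle in placebo and -2.44 ± 0.58 in osimertinib, a difference of 0.37 (exact permutation test over 252 assignments, two-sided, p = 0.349, adjusted p = 0.349 over 6 ratios). Oxct1 stood at 0.10 ± 0.17 and 0.28 ± 0.12, a difference of 0.18 (exact permutation p = 0.0952, adjusted p = 0.286). Acat1 stood at -0.79 ± 0.16 and -0.67 ± 0.14, a difference of 0.11 (exact permutation p = 0.27, adjusted p = 0.349). The smallest p these groups allow is 0.00794. A change of the enzymes relative to the cycle was therefore not shown, and their ratios to it moved far less than their levels. Of the 3, Oxct1 and Acat1 kept the narrowest ratios, within 0.49 and 0.43 log2 units over all 10 libraries, while Bdh1 spanned 1.69, with both libraries numbered 4 at the bottom (-3.68 in placebo and -3.46 in osimertinib).

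**Figure D2:**
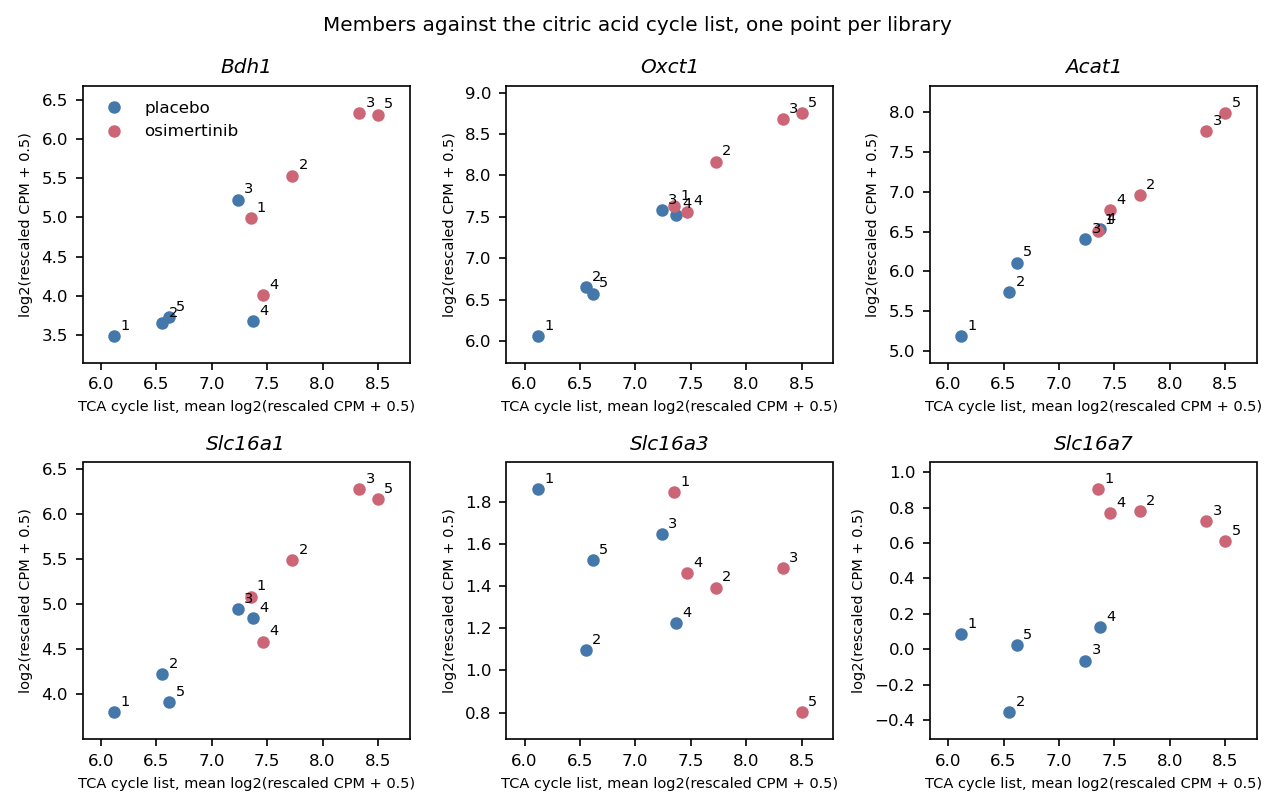
Level of each tested member against the mean level of 18 TCA cycle genes, both as log2(rescaled CPM + 0.5), with 1 point per library labelled by its number. Oxct1 and Acat1 lie along 1 line through both groups, Bdh1 scatters around it, and Slc16a7 lies at 0.61 or more in osimertinib and 0.12 or less in placebo at any level of the cycle.

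Ratios between members were compared in the same way. Slc16a1 to Slc16a3, the broad form against the lactate exporter, went from 2.84 ± 0.73 to 4.14 ± 0.97 on the log2 scale (SD, n = 5 each), a difference of 1.3 that did not pass (exact permutation p = 0.0714, adjusted p = 0.286). Osimertinib libraries 2, 3 and 5 were above every placebo library, and libraries 1 and 4 were not. Bdh1 to Bdh2 went from 3.97 ± 1.07 to 5.15 ± 1.55 (exact permutation p = 0.19, adjusted p = 0.349). Slc16a1 to Slc16a7 differed by 0.49 with the pseudocount (exact permutation p = 0.349) and by -0.16 without it, so no direction can be given.

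**Figure D3:**
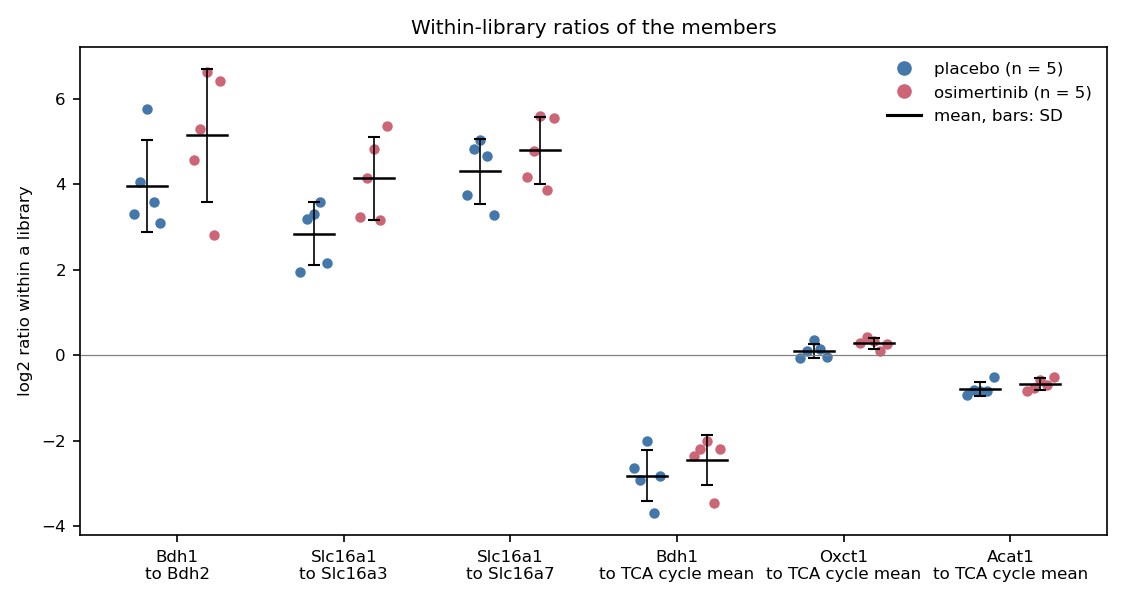
Log2 ratios within a library, with the pseudocount, for 6 pairs in 5 placebo and 5 osimertinib libraries, with means and SD. The groups overlap in all 6, and Oxct1 and Acat1 to the TCA cycle mean show the least spread.

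Per kilobase of exon, which allows genes to be compared, the mean deposited level over the 10 libraries ran from Oxct1 (62.1 CPM per kb) through Acat1 (31.8), Bdh1 (9.30), Slc16a1 (8.56), Slc16a3 (0.438) and Bdh2 (0.164) to Slc16a7 (0.0749). Oxct1 was above Acat1, Acat1 above Bdh1 and Slc16a1 above Slc16a3 in 10 of 10 libraries. Bdh1 and Slc16a1 did not differ beyond their spread, with Bdh1 the higher in 6 of 10. Slc16a3 exceeded Bdh2, and Bdh2 exceeded Slc16a7, in 9 of 10. The annotated exons of Slc16a7 sum to 11.8 kb, the longest of the 7, which lowers its value on this scale. Transcripts on the opposite strand overlap exons of Bdh1 and Oxct1 but were low, at 0.776 CPM or less and 1.25 CPM or less in every library. The unconfirmed transcript Gm47862 overlaps exons of Slc16a7 on the opposite strand. It was not found by name among the genes of the deposited expression table, so no level can be given.

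Of 40 other genes of ketone and monocarboxylate metabolism, 23 were tested. In the deposited CPM 5 of them were called higher (6.62% of all tested genes were). After rescaling 4 were called higher (10.4% of all tested genes were, and 10.5% were called lower). None of the 23 was called lower. Among those called under both scalings is Slc16a9, which osimertinib libraries alone brought to the level for testing. The median log2 fold change of the 23 was 0.62 (0.36 rescaled), beside 0.27 (0.01) for all genes tested. Ldhb, the heart form of lactate dehydrogenase, rose by 1.56 ± 0.36 (limma adjusted p = 0.00533; 1.27 ± 0.39 rescaled, adjusted p = 0.0407), and Mpc1, a subunit of the mitochondrial pyruvate carrier, by 1.43 ± 0.35 (adjusted p = 0.00765; 1.14 ± 0.30 rescaled, adjusted p = 0.0267). The other subunit, Mpc2, passed in the deposited CPM (1.37 ± 0.36, adjusted p = 0.0122) and just missed after rescaling (adjusted p = 0.0526). Ldha, the form of glycolytic tissues, was at 0.85 ± 0.33 (adjusted p = 0.108). Pdk4, the kinase that shuts pyruvate dehydrogenase, passed only in the deposited CPM (1.5 ± 0.39, adjusted p = 0.0123, and 0.0818 rescaled). Without placebo library 5 Ldhb, Mpc2 and Pdk4 no longer passed in the deposited CPM (adjusted p = 0.0541, 0.0705 and 0.157), and Ldhb and Mpc1 were lost after rescaling in 6 and 4 of the 10 fits without 1 library (adjusted p up to 0.105 and 0.076).

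Another transporter of the family, Slc16a9, which is linked to carnitine transport, separated the groups as Slc16a7 did. Placebo libraries 1 to 5 measured 0.938, 1.13, 0.74, 0.728 and 0.375 CPM and osimertinib libraries 2.28, 2.60, 2.05, 4.63 and 2.99 CPM. All osimertinib libraries were above all placebo libraries under both scalings, as in 5.33% of tested genes deposited and 5.72% rescaled. The log2 fold change was 1.39 ± 0.30 (limma adjusted p = 0.00396) and 1.21 ± 0.19 rescaled (adjusted p = 0.00867). Only 1 placebo library reached 1 CPM, so these values are a description: the 5 osimertinib libraries met the level for testing by themselves. With no filter it did not pass in the deposited CPM (adjusted p = 0.158). Slc16a10, an aromatic amino acid transporter of the family, passed after rescaling only (0.51 ± 0.16, adjusted p = 0.0402), and in 3 of 10 rescaled fits without 1 library. Bsg, the membrane partner that carries the Slc16a1 and Slc16a3 transporters to the cell surface, was at 0.93 ± 0.33 (adjusted p = 0.075) and 0.64 ± 0.25 rescaled (adjusted p = 0.0828).

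Ppargc1a, a coactivator of oxidative metabolism genes, was at 0.91 ± 0.34 (limma adjusted p = 0.0845). Placebo library 3, at 24.95 CPM, lay above all osimertinib libraries (10.8 to 20.8). In the deposited CPM it passed without placebo library 3 or osimertinib library 1 (limma adjusted p down to 0.00563), but in none of the other 8 fits without 1 library. After rescaling it passed only without placebo library 3 (0.0159), and 9 fits did not pass. Ppara, a nuclear receptor for fatty acids, was held by 3 to 19 reads per library and was not tested. Oxct2b, Slc5a12, Ldhc and Ffar3 were at 0 in all libraries; 3 reads, the limit that a count of 0 allows, come to 0.141 to 0.189 CPM.

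**Figure D4:**
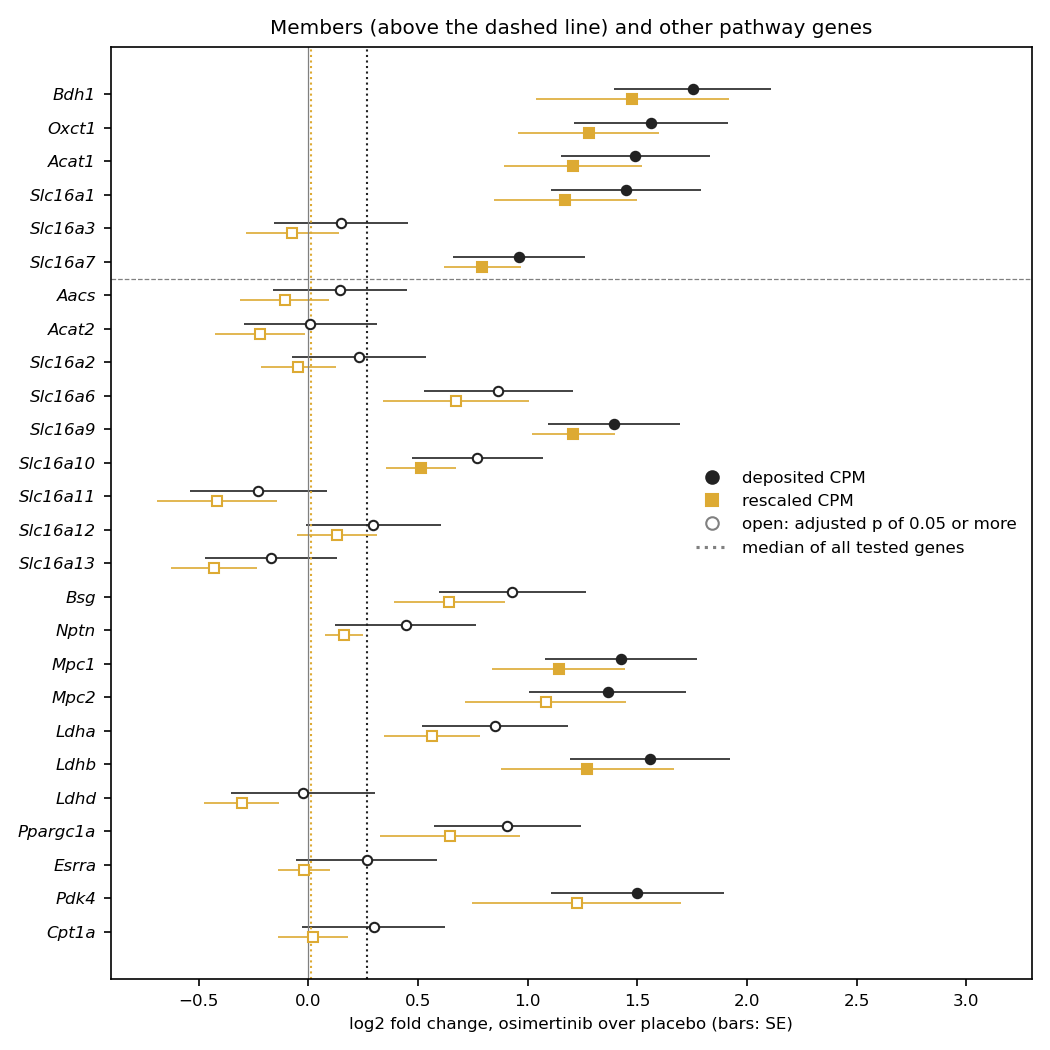
Log2 fold change of osimertinib over placebo with SE for the 6 tested members (above the dashed line) and 20 of the 23 other pathway genes tested, in deposited (circles) and rescaled CPM (squares). Filled symbols passed limma at an adjusted p under 0.05, and dotted lines mark the medians of all tested genes, 0.27 and 0.01.

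The genes whose pattern over the 10 libraries was most like that of each member, by Pearson's r of log2 rescaled values, differed between members. For Oxct1 they were Uqcrfs1 (0.997), Sod2 (0.996) and Atp5pb (0.995), for Acat1 Gatd3a, Pgm1 and Sdhd (each 0.997), for Slc16a1 Eif4e (0.995), Cmc1 (0.992) and Gsto1 (0.99), and for Bdh1 Myl12a (0.983), Abhd5 (0.978) and Ptdss1 (0.978). For Slc16a3 they were Tsku (0.977), Ptgs2 (0.918) and Tubb3 (0.907), and for Slc16a7 Hmgn2 (0.943), Zhx2 (0.942) and Il6st (0.929). After the group means were subtracted the 3 nearest genes of Slc16a7 came to 0.41, 0.41 and 0.36, whereas those of the other members ran from 0.907 to 0.995. All were picked from the tested genes by r over the 10 libraries, which includes the gap between the groups. Slc16a7 rests on 5 to 24 reads per library, so its lower values are a description only.

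Markers of some cell types moved with the same libraries. The summed rescaled level of 8 cardiomyocyte markers was 12641 to 30518 CPM in placebo and 24745 to 41867 in osimertinib, and its r over the libraries was 0.97 with Oxct1, 0.94 with Acat1, 0.92 with Slc16a1, 0.80 with Bdh1 and 0.55 with Slc16a7. The 8 endothelial markers ran the other way, at 2191 to 3095 CPM in placebo and 1706 to 2201 in osimertinib. Their r was -0.86 with Oxct1, -0.83 with Acat1, -0.76 with Slc16a1, -0.76 with Slc16a7 and -0.68 with Bdh1. The 7 smooth muscle and pericyte markers were at 429 to 627 CPM in placebo and 498 to 793 in osimertinib, with an r of 0.85 with Slc16a1, 0.80 with Oxct1, 0.75 with Acat1, 0.74 with Bdh1 and 0.27 with Slc16a7. The 7 atrial markers were at 517 to 1412 CPM in placebo and 710 to 4712 in osimertinib. Their r was 0.61 with Slc16a7 and -0.04 to 0.04 with Bdh1, Oxct1, Acat1 and Slc16a1. Osimertinib library 4 held the 4712, with 710 to 2285 in the rest of its group. That library also had the highest fibroblast and adipocyte sums. The 6 adipocyte markers summed to 0.524 to 40.9 CPM in placebo and 0.623 to 42.1 in osimertinib. Their r was -0.47 with Slc16a1, -0.40 with Oxct1, -0.35 with Bdh1, -0.33 with Acat1 and 0.31 with Slc16a7. The 8 macrophage markers summed to 94.5 to 142 and 132 to 168 CPM. Their r was 0.53 to 0.69 with Oxct1, Acat1, Slc16a1 and Slc16a7 and 0.49 with Bdh1. The 8 fibroblast markers were at 465 to 964 CPM in placebo and 646 to 1330 in osimertinib. Their r was -0.10 with Bdh1 and Acat1, -0.17 with Oxct1, -0.22 with Slc16a1 and 0.42 with Slc16a7. The 4 erythroid markers found were at 111 to 300 and 43.1 to 384 CPM. Their r was 0.26 to 0.34 with Bdh1, Oxct1, Acat1 and Slc16a1 and -0.28 with Slc16a7. For Slc16a3 r was -0.51 with the cardiomyocyte sum, -0.43 with smooth muscle and pericyte, -0.38 with erythroid and -0.13 with macrophage. It was 0.52 with atrial, 0.48 with fibroblast, 0.44 with adipocyte and 0.24 with endothelial. The part of the differences in marker levels in the results was not tested.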

How the data were processed

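Messenger RNA of the left ventricle was sequenced from 10 mouse libraries, grouped and numbered by their titles. The authors deposited CPM, scaled to each library's total (1000000) with no factor between libraries. The design text names STAR (to GRCm38), RSEM and strand-specific libraries. Their versions, and any use of strand in counting, are not given in the sources used. Per the submitters' processing notes the tools were instead cutadapt 1.9, HISAT2 2.0.4, StringTie 1.3.4d with DESeq2, on human build hg38, although the identifiers are mouse ones (45143 of 45706 matched GENCODE M21, GRCm38, which gave coordinates and exon lengths).

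The commonest value above 0 gave the CPM of 1 read. Of values under 200 reads, 90.7% to 93.3% were whole to 0.01 read. The main test was therefore not run on counts, and voom on estimated reads was an alternative only. Its library sizes were multiplied by the median-ratio divisors, so it is a rescaled fit. No pair among 45 agreed within sampling noise. The 12350 genes at or above 1 CPM in 5 or more libraries were tested with limma 3.58.1 (R 4.3.3) on log2(CPM + 0.5) with an intensity trend. Tests were two-sided, with Benjamini-Hochberg adjustment over all of these genes and calls at 0.05; fold changes are on that scale. Rescaling used median ratios over tested genes. Simulated data with known changes were used to check the fit. Ratios were tested by exact permutation, adjusted over 6. Named were all members, called pathway genes, 8 further pathway genes whatever their test gave (2 of them are not reported here) and the 3 genes most like each tested member by r (clone, Rik, Gm and pseudogene symbols excepted); Ppara and the 4 genes at 0 were named after their values were seen. Members, lists and rules were chosen with earlier results of these data known. Alternatives were other pseudocounts (0.1 and 2), filters, scalings and variance models, voom on estimated reads, a replicate block, and each library left out in turn; rescaling with no filter, and ratios with no pseudocount, were chosen after the data were seen. The limit of 3 reads for a count of 0 covers counting error only. The SD and the limma SE describe the spread between libraries.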

Additional observations from a re-analysis of the deposited data

Results flagged for a closer look

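Among 40 groups of 5 values examined, 5 held a value far from the other 4 (a gap over 0.71 of the range; chance gives about 1 in 20). Bdh1 in placebo library 3 was 36.9 rescaled CPM, above 10.8 to 12.8 in the other 4. Bdh2 in osimertinib library 4 was 2.20 deposited CPM (37 reads), above 0.442 to 0.929 in the other 4. Slc16a3 in osimertinib library 5 was 1.28 deposited CPM (23 reads), below 2.60 to 3.04. The log2 ratio of Bdh1 to the TCA cycle mean was -3.46 in osimertinib library 4, below -2.36 to -2.0, and that of Acat1 was -0.504 in placebo library 5, above -0.931 to -0.817.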

How the results depend on the processing

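The 5 members called in the deposited CPM were 5 also after rescaling, alone or with array weights, with voom, without mitochondrial and haemoglobin genes, and with a replicate block under either scaling. They were 4 under the filter on mean level, which left 4 to test. With no filter 0 passed, and 2 after rescaling. Leaving out 1 library gave 4 to 5 in the deposited CPM and 1 to 5 rescaled (3 without placebo library 5). Where only 1 member passed it was Slc16a7, whose call carries no weight, so none of the other members passed there. The 5 other pathway genes became 2 without mitochondrial and haemoglobin genes, 0 with no filter (1 rescaled), 8 with the replicate block, and 2 to 8 (deposited) or 1 to 6 (rescaled) without 1 library. Where only 1 of them passed it was Slc16a9, which osimertinib libraries alone brought to the level for testing. The 833 genes called in all became 2574 after rescaling, 3075 after rescaling with array weights, 2633 with voom on estimated reads, 0 with no filter (1227 rescaled), 1320 with the replicate block (2949 rescaled), and 307 to 1126 (deposited) or 521 to 2800 rescaled without 1 library (2594 and 2190 without placebo libraries 4 and 5, 2774, 1790 and 2556 without osimertinib libraries 1, 2 and 4). The causes were not tested. The direction of Slc16a3 turned after rescaling (-0.073, with replicate block -0.073, with no filter -0.066), without mitochondrial and haemoglobin genes (-0.059), with voom (-0.11) and without placebo library 5 (-0.029; up to 0.32 in the other deposited fits without 1 library). It also turned in 8 of 10 rescaled fits without 1 library, at -0.17, -0.028, -0.14 and -0.060 without placebo libraries 2 to 5 and -0.19, -0.072, -0.095 and -0.088 without osimertinib libraries 1 to 4. The difference in Slc16a1 to Slc16a7 was -0.16 with no pseudocount. Same-numbered libraries correlated at 0.428, 0.245, 0.464, -0.339 and -0.162 in their deviations from the group means, and 3 of 5 placebo libraries correlated best with their own number; since 2 of the 5 lay below 0.1 and no label ties the numbers to animals or days, they were not treated as pairs. The replicate block brought Bsg past the threshold (adjusted p = 0.0471, rescaled 0.0453) and Ppargc1a in the deposited CPM (0.0256). Bdh2, Slc16a3 and Slc16a7 rest on 4 to 67 reads per library; the part of depth in their results was not tested.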
